A study of Mus musculus with 28 samples.

Results

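The transcripts of 7 natural killer (NK) cell receptors and 2 T-box transcription factors were followed across AB1-HA mesothelioma tumors. The 9 genes were chosen by name (Ncr1, Klrb1c, Klre1, Klrk1, Klrd1, Klrc1, Cd226, Eomes and Tbx21). All 9 were found among the 55341 gene rows of both deposited count tables. RNA-seq had been run on 28 whole tumors, each from a different mouse, to ask how chemotherapy and immune checkpoint blockade (ICB) change the tumor when given singly or together. Adult female BALB/c.AusBP mice carried a subcutaneous tumor grown from 500000 AB1-HA cells, a mouse mesothelioma line, and treatment began once the tumor measured 20 to 25 mm2.

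There were 4 PBS tumors, 5 ICB tumors, 5 5-FU tumors, 4 cisplatin tumors, 5 5-FU+ICB tumors and 5 cisplatin+ICB tumors, all taken 7 days after the first treatment. ICB was anti-CTLA-4 with anti-PD-L1, 100 µg of each into the peritoneum, followed by 2 further doses of anti-PD-L1. The antimetabolite 5-FU was given at 75 mg/kg into the tail vein, and the DNA-crosslinking agent cisplatin at 6 mg/kg into the peritoneum. Combination groups received both agents at the same doses, and PBS mice received neither. Totals ran from 23541733 to 33950805 estimated counts per tumor, and the lowest count of any member in any tumor was 17, well above the floor of 3 counts. Levels are given as CPM, a gene's count scaled to a common library size after TMM normalization between tumors, and are compared between tumors for the same gene only. A gene was called where the Benjamini-Hochberg adjusted p of edgeR's quasi-likelihood test was below 0.05 and the absolute log2 fold change above 0.5. All 9 members passed the filter on low counts in every fit.

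NK cells kill target cells without prior priming, by balancing activating receptors against inhibitory receptors that read MHC class I. Few of these receptors belong to NK cells alone: NKG2D, CD94, NKG2A and CD226 are also carried by activated CD8+ T cells, whereas NKp46 and, in strains that have it, NK1.1 mark NK cells and related innate lymphoid cells. NK cells of BALB/c mice are not stained by the NK1.1 antibody, so Klrb1c is read here as a transcript and not as an NK cell marker. T-bet and eomesodermin, the T-box factors, direct the development of NK cells and the effector program of CD8+ and Th1 cells. In a whole tumor, fewer cells of a type and less RNA per cell cannot be told apart.

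In the GENCODE M21 annotation of GRCm38, 5 of the receptor genes lay in the NK gene complex. Klrb1c (the NKR-P1C chain, NK1.1) was at chr6:128778485-128789215, Klre1 (a lectin-like receptor chain) at chr6:129577905-129585827, Klrd1 (CD94) at chr6:129591782-129598775, Klrk1 (NKG2D) at chr6:129610323-129623864 and Klrc1 (NKG2A) at chr6:129666015-129678973. Ncr1 (NKp46) was at chr7:4337724-4345164, Eomes at chr9:118478212-118486132 and Tbx21 (T-bet) at chr11:97098071-97115331. All are protein-coding. Cd226 encodes DNAM-1, the activating receptor for the nectin-like ligands PVR and nectin-2. Lectin-like receptor genes have close copies, which bears on how reads were assigned. Of the 31-base words in Klrc1 transcripts, 53.1% also occurred in transcripts of another gene, chiefly Klrc2, and the share was 21.2% for Klrb1c, 2.59% for Eomes and at most 1% for the other members. The Klrc1 and Klrb1c counts are therefore less certain than the rest. BALB/c reads were mapped to the C57BL/6 reference, and the effect of that on the NK gene complex was not tested.

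Promoter sequences from RefSeq (GRCm38.p6, 250 bases before to 50 after the annotated start, in the direction of the gene) were used for 7 of the 9 members, in 9 windows. None was used for Klrd1 or Cd226. They were searched on both strands for a T-box core (AGGTGT), a RUNX motif (TGTGGT) and an interferon-gamma-activated site (TTCNNNGAA). The RUNX motif and the activated site were added after sequences had been seen. The windows below are shown because, in ICB tumors against PBS, their genes had the smallest (Ncr1) and the largest log2 fold changes (Tbx21, Klrc1) of the members, with Klrk1 in between, and capitals mark the RUNX motif on either strand.
Ncr1 (chr7:4337474-4337773, plus strand): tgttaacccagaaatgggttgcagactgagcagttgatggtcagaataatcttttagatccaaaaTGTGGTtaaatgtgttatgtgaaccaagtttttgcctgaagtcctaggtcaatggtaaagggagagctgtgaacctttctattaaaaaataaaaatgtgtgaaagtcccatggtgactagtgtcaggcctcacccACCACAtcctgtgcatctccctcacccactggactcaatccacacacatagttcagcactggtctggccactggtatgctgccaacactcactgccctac
Klrk1 (chr6:129623815-129624114, minus strand): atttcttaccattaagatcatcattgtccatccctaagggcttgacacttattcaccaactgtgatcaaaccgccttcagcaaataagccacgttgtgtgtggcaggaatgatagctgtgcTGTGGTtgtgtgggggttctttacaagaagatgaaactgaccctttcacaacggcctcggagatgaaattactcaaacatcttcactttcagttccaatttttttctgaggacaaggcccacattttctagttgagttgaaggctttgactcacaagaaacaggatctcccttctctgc
Klrc1 (chr6:129678924-129679223, minus strand): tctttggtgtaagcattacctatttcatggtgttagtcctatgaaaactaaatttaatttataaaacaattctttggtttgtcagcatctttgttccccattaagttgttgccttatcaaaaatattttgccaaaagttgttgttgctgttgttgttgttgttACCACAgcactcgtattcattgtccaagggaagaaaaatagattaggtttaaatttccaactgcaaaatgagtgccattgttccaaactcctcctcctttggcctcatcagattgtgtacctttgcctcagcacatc
Tbx21 (chr11:97115282-97115581, minus strand): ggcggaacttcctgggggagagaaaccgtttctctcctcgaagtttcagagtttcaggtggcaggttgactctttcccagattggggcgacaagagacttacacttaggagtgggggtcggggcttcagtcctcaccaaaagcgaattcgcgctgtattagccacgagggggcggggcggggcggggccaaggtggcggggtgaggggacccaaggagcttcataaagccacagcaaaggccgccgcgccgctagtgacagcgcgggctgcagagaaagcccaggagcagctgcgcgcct

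The RUNX motif was present in 6 of the 9 member windows (both overlapping windows of Ncr1, 1 of the 2 of Klre1, and those of Klrb1c, Klrk1 and Klrc1) and absent from those of both T-box genes. It was held by 16.8% of the 32851 promoters listed, and since the motif was chosen after sequences had been seen, nothing is read from that difference. Neither the T-box core (13.7% of all promoters) nor the activated site (8.3%) occurred in any of the 9 member windows. A match is a description of the letters and not of binding.

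The first comparison asked what ICB alone did. Receptors shared with CD8+ T cells, and Tbx21, were several fold higher in ICB tumors than in PBS tumors, and Ncr1 and Klrb1c differed least. By edgeR's quasi-likelihood test, 7 of the 9 members were called higher and none lower, where 19% of all genes tested were called higher. Every ICB tumor lay above every PBS tumor for those 7 members, which held for 15.8% of all genes.

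Tbx21 gave 1.3, 1.42, 1.45 and 2.33 CPM in the 4 PBS tumors and 11.1, 17.2, 25.4, 7.77 and 16.1 CPM in the 5 ICB tumors. The groups did not overlap, and ICB replicate 4 was the lowest of its group. The PBS mean was 1.62 ± 0.473 CPM (SD, n = 4) and the ICB mean 15.5 ± 6.73 CPM (SD, n = 5), so Tbx21 rose by 3.28 log2 (SE 0.61, edgeR adjusted p = 0.000899). Eomes, its relative, gave 4.87, 3.83, 4.63 and 7.14 CPM in PBS tumors and 15.8, 17.4, 12.6, 7.98 and 13.0 CPM in ICB tumors. The groups again did not overlap, although ICB replicate 4 was close to the highest PBS tumor. Eomes rose by a log2 fold change of 1.42 (SE 0.37, edgeR adjusted p = 0.006).

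Klrc1, whose product pairs with CD94 into an inhibitory receptor for Qa-1, gave 5.07, 7.53, 3.14 and 4.62 CPM in PBS tumors and 38.0, 36.4, 70.0, 21.4 and 54.0 CPM in ICB tumors. The lowest ICB tumor was well above the highest PBS tumor. The log2 fold change was 3.11 (SE 0.69, edgeR adjusted p = 0.00235). Klrc2, which shared 49.6% of the 31-base words of Klrc1, and Klrc3, which shared 6.32%, are neighbors that form activating receptors with CD94. They were called higher too, by 3.15 and 3.35 log2. Klrc1 took between 65.9 and 80.1% of the summed CPM of Klrc1, Klrc2 and Klrc3 in all 28 tumors, Klrc2 between 13 and 26.2% and Klrc3 between 4.24 and 10.6%. Klrd1, the shared CD94 chain, was 3.45, 6.75, 1.73 and 2.79 CPM in PBS tumors and 21.6, 18.3, 24.9, 11.7 and 18.8 CPM in ICB tumors, without overlap, and rose by 2.36 log2 (SE 0.58, edgeR adjusted p = 0.00442).

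Klrk1 encodes NKG2D, which recognises stress-induced ligands. It gave 11.6, 19.6, 7.45 and 11.6 CPM in PBS tumors and 68.3, 72.1, 92.2, 45.7 and 69.9 CPM in ICB tumors. No tumors overlapped, with replicate 3 the highest and replicate 4 the lowest of the ICB group (log2 fold change 2.47, SE 0.51, edgeR adjusted p = 0.00159). Cd226 gave 3.28, 7.22, 1.84 and 3.22 CPM in PBS tumors and 22.6, 19.5, 38.8, 13.1 and 29.0 CPM in ICB tumors. PBS replicate 2, the highest of its group, remained below all ICB tumors, and Cd226 rose by 2.65 log2 (SE 0.68, edgeR adjusted p = 0.00561). Klre1, an inhibitory or activating chain depending on its partner KLRI1 or KLRI2, gave 1.95, 3.22, 0.723 and 2.29 CPM in PBS tumors and 8.65, 5.85, 8.01, 4.97 and 4.95 CPM in ICB tumors. It rose without overlap by 1.66 log2 (SE 0.47, edgeR adjusted p = 0.00979).

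Ncr1, the activating receptor that marks NK cells across mouse strains, gave 10.2, 16.1, 6.11 and 11.1 CPM in PBS tumors and 20.8, 17.7, 15, 9.99 and 16.6 CPM in ICB tumors. The groups overlapped, since PBS replicate 2 exceeded 2 of the ICB tumors. Its log2 fold change was 0.56 (SE 0.40, edgeR adjusted p = 0.269), short of a call. Klrb1c gave 2.72, 4.71, 1.37 and 2.49 CPM in PBS tumors and 7.02, 6.2, 6.75, 2.8 and 6.05 CPM in ICB tumors. Of the ICB tumors, replicate 4 alone fell among the PBS tumors. Its log2 fold change was 1.03 (SE 0.51, edgeR adjusted p = 0.115).

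**Figure D1:**
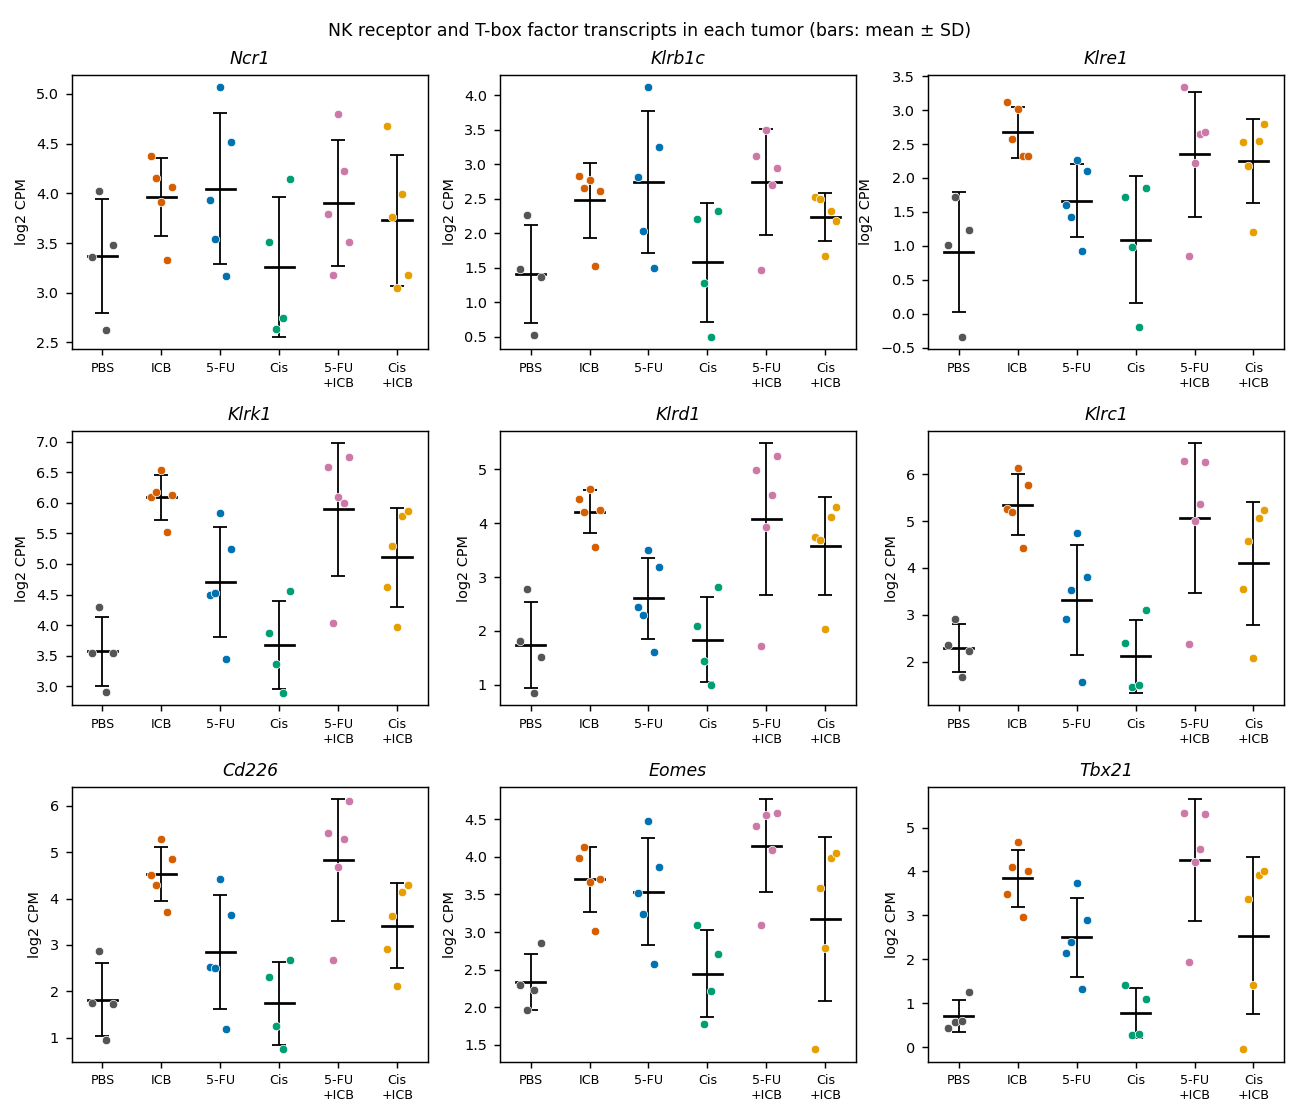
Log2 CPM (vertical axis) of the 9 members in each tumor (points) of the 6 treatment groups (horizontal axis), with the group mean and SD as bars. Tbx21, Klrc1, Klrk1, Klrd1 and Cd226 stood clear of PBS in all 5 ICB tumors, whereas Ncr1 overlapped between every treatment and PBS.

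Other cell types moved with these receptors. Among 10 T cell markers, 9 were called higher in ICB tumors, and their summed level was 29.0 to 38.5 CPM in PBS and 189 to 729 CPM in ICB tumors, with none at 0. Cd3e, a chain of the T cell receptor complex that NK cells largely lack at the surface, rose by 3.51 log2 (SE 0.72, edgeR adjusted p = 0.00156), and Cd8a by 4.42. Of 12 NK cell markers other than the members, 9 passed the filter and 4 were called higher (Prf1 and Gzma, which T cells express too, Klrb1b and Cd244a), from a summed 58.2 to 76.7 CPM in PBS tumors to 181 to 326 CPM in ICB tumors. Prf1 (mean 10.5 to 126 CPM) and Gzma (14.8 to 44.6 CPM) made up most of the rise of that sum, and Klrb1b went from 2.18 to 20.2 CPM. Ptprc, the pan-leukocyte CD45, rose by 2.00 log2. How far each cell type accounts for the receptor transcripts was not tested.

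Because so many leukocyte genes rose together, each member was also read against Cd3e in the same tumor, as a difference of log2 CPM. This difference is a description and depends on both genes. For Tbx21 it was -1.21 ± 0.38 in PBS (SD, n = 4), -1.41 ± 0.23 in ICB, -1.28 ± 0.29 in 5-FU, -1.08 ± 0.51 in cisplatin, -1.28 ± 0.26 in 5-FU+ICB and -1.32 ± 0.25 in cisplatin+ICB tumors. Over all 28 tumors the Tbx21 difference stayed between -1.66 and -0.36, the narrowest span among the members, while Tbx21 itself ranged from 0.901 to 39.9 CPM.

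Ncr1 did not keep such a distance. Its difference from Cd3e was 1.44 ± 0.46 in PBS tumors and 1.40 ± 0.58 in cisplatin tumors, 0.26 ± 0.54 in 5-FU tumors, and -1.30 ± 0.70 in ICB and -1.63 ± 1.54 in 5-FU+ICB tumors. Cisplatin+ICB tumors averaged -0.13 ± 2.39, or -1.11 ± 1.13 without replicate 1, which alone stood at 3.77. Klrb1c went from -0.53 ± 0.60 in PBS to -2.79 ± 0.51 in ICB tumors. The difference was also lower in ICB tumors for Eomes (0.40 ± 0.49 in PBS and -1.56 ± 0.69 in ICB) and Klre1 (-1.02 ± 0.78 and -2.59 ± 0.71), both called higher with ICB, so a lower difference was not particular to Ncr1 and Klrb1c. It moved less for Klrk1 (1.64 ± 0.44 and 0.82 ± 0.44), Klrd1 (-0.19 ± 0.68 and -1.05 ± 0.47) and Cd226 (-0.12 ± 0.65 and -0.73 ± 0.24). Klrc1 gave 0.37 ± 0.42 in PBS and 0.09 ± 0.17 in ICB tumors. In 5-FU+ICB tumors the Klrc1 difference was -0.48 with an SD of only 0.05, although Klrc1 ranged from 5.12 to 78.0 CPM there. In cisplatin+ICB tumors it was 0.23 ± 1.37, or -0.37 ± 0.26 without replicate 1. Read against Ptprc instead, members moved in both directions between PBS and ICB tumors. The mean went from -4.22 to -3.13 for Klrc1, -5.79 to -4.63 for Tbx21 and -4.7 to -3.95 for Cd226. It went from -2.94 to -2.39 for Klrk1 and -4.78 to -4.26 for Klrd1. It fell for Ncr1 (-3.14 to -4.51), Klrb1c (-5.11 to -6), Eomes (-4.18 to -4.78) and Klre1 (-5.61 to -5.8).

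**Figure D2:**
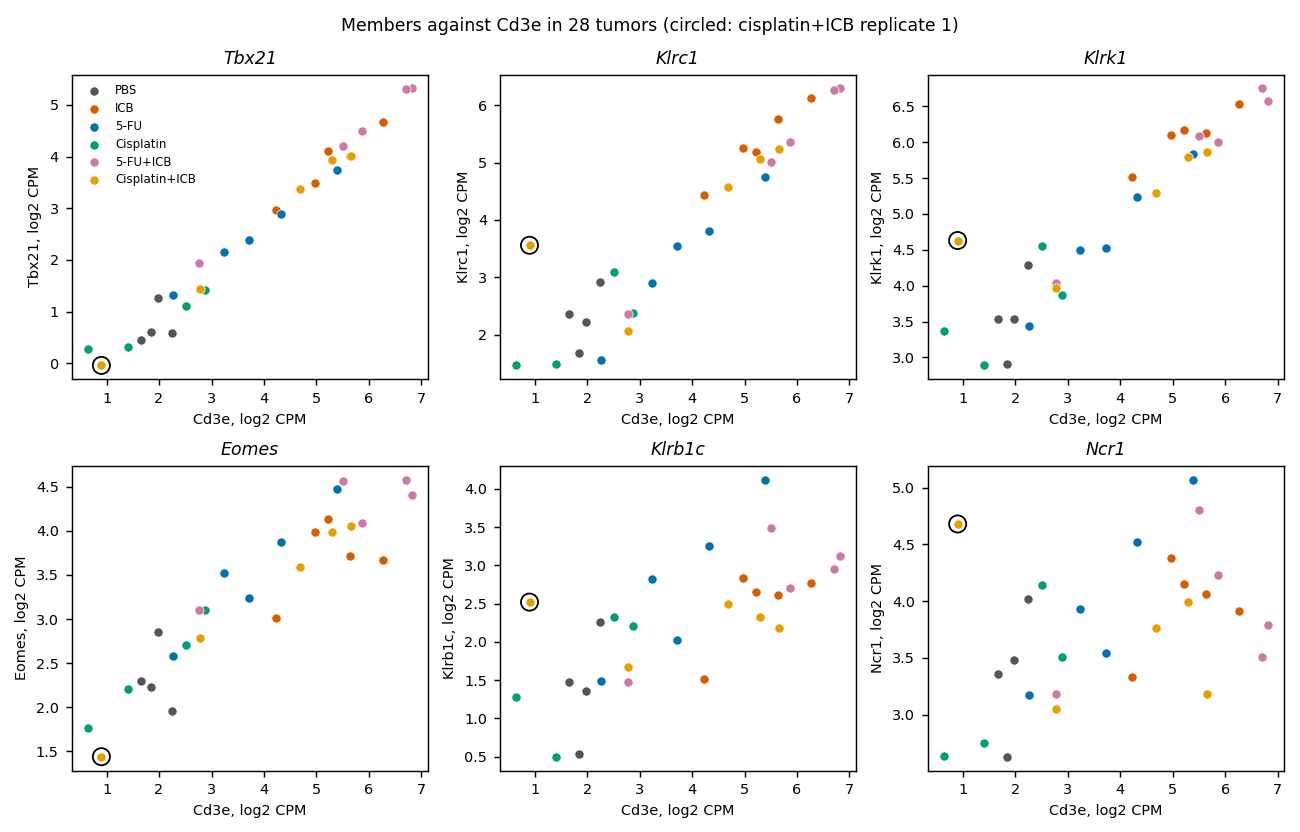
Log2 CPM of 6 members (vertical axes) against log2 CPM of Cd3e (horizontal axes) in 28 tumors, colored by treatment group. Tbx21 kept within -1.66 to -0.36 log2 of Cd3e in every tumor, while Ncr1 was spread over -3.21 to 3.77. The circled tumor, cisplatin+ICB replicate 1, was the lowest of its group in Cd3e, Tbx21 and Eomes. It had the lowest TMM factor of the 28 (0.685), and its first rank in Ncr1 and Klrb1c did not hold clearly for Ncr1 (17.4 against 17.1 CPM), nor at all for Klrb1c, when scaled by total counts alone.

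The second comparison asked what each chemotherapy did alone. In 5-FU tumors, Tbx21, Eomes and Klrb1c were called higher, 3 of 9 members, where 9.98% of all genes were called higher. All 9 had positive values, and 5-FU replicate 3 was the highest and replicate 4 the lowest 5-FU tumor for every one of them. Cisplatin tumors did not differ detectably from PBS tumors in any member.

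For Tbx21 the 5-FU tumors gave 4.38, 5.18, 13.3, 2.44 and 7.35 CPM. All lay above the PBS tumors, replicate 4 only just (log2 fold change 2.02, SE 0.58, edgeR adjusted p = 0.0196). Eomes gave 11.4, 9.38, 22.3, 5.93 and 14.5 CPM, with replicate 4 inside the PBS range (log2 fold change 1.33, SE 0.37, edgeR adjusted p = 0.0164). Klrb1c gave 6.99, 4.03, 17.3, 2.75 and 9.43 CPM, so that replicates 2 and 4 overlapped PBS (log2 fold change 1.51, SE 0.52, edgeR adjusted p = 0.0417).

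The receptors that led the response to ICB were less clear here. Klrk1 gave 22.5, 23, 56.9, 10.8 and 37.6 CPM in 5-FU tumors, and its rise of 1.26 log2 missed the threshold (SE 0.49, edgeR adjusted p = 0.0634). Klrc1 gave 7.45, 11.6, 26.7, 2.9 and 13.9 CPM, from below the lowest PBS tumor to far above the highest (log2 fold change 1.29, SE 0.64, edgeR adjusted p = 0.138). Cd226, Ncr1, Klrd1 and Klre1 had log2 fold changes of 1.26, 0.75, 0.85 and 0.66, none of them called. T cell markers were called higher in 7 of 10 cases after 5-FU, with a summed 45.8 to 476 CPM, and 4 of the 9 tested NK markers were called higher.

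These calls rested on few tumors. The count of members called in 5-FU tumors was 0 without PBS replicate 1, 1 (Klrb1c) without PBS replicate 2, 1 (Eomes) without 5-FU replicate 3 and 4 without 5-FU replicate 4, when Klrk1 joined. With the labelled replicate number as a block, Eomes alone was called.

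Cisplatin tumors gave member log2 fold changes between -0.08 and 0.23 with SEs of 0.40 to 0.64. No gene of 17819 tested was called (0%), and no member reached an unadjusted p under 0.05 (1.78% of all genes) or a call by DESeq2. Tbx21, for example, gave 2.59, 1.14, 1.17 and 2.07 CPM, close to the PBS range. Klrk1 gave 14.6, 10.3, 7.35 and 23.5 CPM, with replicate 4 somewhat above PBS and replicate 3 just below it. Summed T cell markers were 18.8 to 58.4 CPM, on both sides of the PBS range. Between the chemotherapies, all 9 members were numerically higher after 5-FU than after cisplatin, with log2 differences of 0.46 to 1.89. None was called by edgeR or by DESeq2 (0.362% of all genes were called by edgeR), and 6 had an unadjusted p under 0.05 (15.5% of all genes).

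The third comparison set the combinations against PBS. These comparisons use the same PBS tumors as those above, so their values stand side by side and are not independent. In 5-FU+ICB tumors 8 of 9 members were called higher, all except Ncr1, where 21.9% of all genes were called higher. Tbx21 rose the most of the members, then Cd226 and Klrc1. Of the members, only Eomes and Tbx21 had every 5-FU+ICB tumor above every PBS tumor (10.9% of all genes), and replicate 2 had PBS-like levels of all 7 receptors.

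Tbx21 gave 39.9, 3.78, 18.5, 22.5 and 39.6 CPM in 5-FU+ICB tumors, a log2 fold change from PBS of 3.97 (SE 0.63, edgeR adjusted p = 0.000484). Eomes gave 21.3, 8.5, 23.6, 17.0 and 23.9 CPM, a log2 fold change of 1.91 (SE 0.37, edgeR adjusted p = 0.00135). Replicate 2 was the lowest for both, yet above all PBS tumors.

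Klrc1 gave 78.0, 5.12, 32.1, 41.1 and 76.7 CPM (log2 fold change 3.20, SE 0.69, edgeR adjusted p = 0.00217). Cd226 gave 42.8, 6.29, 25.5, 39.1 and 68.5 CPM (log2 fold change 3.23, SE 0.70, edgeR adjusted p = 0.00218). For both, replicate 2 lay within the PBS range and the other 4 tumors far above it.

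Klrk1 gave 95.7, 16.4, 67.8, 63.9 and 108 CPM (log2 fold change 2.49, SE 0.51, edgeR adjusted p = 0.00168). Klrd1 gave 31.5, 3.26, 15.1, 22.9 and 37.7 CPM (log2 fold change 2.58, SE 0.59, edgeR adjusted p = 0.00283). Again replicate 2 stood alone among PBS-like values, and its T cell markers summed to 59.2 CPM, the least of the group, whose highest tumor reached 1560 CPM.

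Klre1 and Klrb1c rose less, by 1.5 (SE 0.47, edgeR adjusted p = 0.0159) and 1.37 log2 (SE 0.52, edgeR adjusted p = 0.0395). Klre1 gave 10.1, 1.74, 4.58, 6.22 and 6.3 CPM, and Klrb1c 8.6, 2.7, 11.1, 6.44 and 7.65 CPM. Replicate 2 was again the lowest and overlapped PBS. Klrb1c lost its call when any PBS or 5-FU+ICB tumor but replicate 2 of either group was left out, with adjusted p up to 0.106, and both genes lost it with the replicate block. Ncr1 gave 13.8, 8.99, 27.8, 18.7 and 11.3 CPM, with 3 of 5 tumors within the PBS range, and a log2 fold change of 0.57 (SE 0.40, edgeR adjusted p = 0.253).

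In cisplatin+ICB tumors, 4 of 9 members were called higher (Klrk1, Klrd1, Klrc1 and Tbx21), where 4.70% of all genes were called higher. Klrk1 gave 24.7, 39.1, 15.6, 55.2 and 58.1 CPM (log2 fold change 1.63, SE 0.41, edgeR adjusted p = 0.0296). Klrd1 gave 13.4, 12.8, 4.01, 17.3 and 19.6 CPM (log2 fold change 1.88, SE 0.47, edgeR adjusted p = 0.0306). Only replicate 3 overlapped the PBS tumors in these genes. Scaled by total counts alone, an alternative chosen after the values had been seen, replicate 1 overlapped too for Klrk1, at 16.9 CPM against 18.4 CPM in PBS replicate 2.

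Klrc1 gave 11.7, 23.9, 4.13, 33.2 and 37.4 CPM (log2 fold change 2.13, SE 0.55, edgeR adjusted p = 0.033). Tbx21 gave 0.901, 10.4, 2.62, 15.2 and 16.2 CPM (log2 fold change 2.49, SE 0.64, edgeR adjusted p = 0.0321). The tumor that overlapped PBS differed between them: replicate 3 for Klrc1, but replicate 1, below every PBS tumor, for Tbx21. The other members had log2 fold changes of 1.67 (Cd226), 1.30 (Klre1), 1.09 (Eomes), 0.76 (Klrb1c) and 0.41 (Ncr1), with edgeR adjusted p between 0.0615 and 0.584.

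Replicate 1 of the cisplatin+ICB group had few T-box and T cell transcripts for its level of Ncr1. Its Eomes level was 2.65 CPM against 6.87 to 16.4 CPM in the other tumors of the group, and its Cd3e level was 1.80 CPM against 6.81 to 50.5 CPM. Its Ncr1 level was 25.5 CPM against 8.22 to 15.8 CPM, and its Klrb1c level 5.67 CPM against 3.12 to 5.58 CPM. These ranks rest on the scaling, since the tumor had the lowest TMM factor of all 28 (0.685, against 1.079 to 1.143 in the rest of its group). Scaled by total counts alone, Ncr1 was 17.4 CPM, level with 17.1 CPM in replicate 4. Klrb1c was then 3.88 CPM, below replicates 2, 4 and 5 (6.09, 5.33 and 4.79 CPM), while Tbx21 (0.617 CPM) and Eomes (1.81 CPM) remained the lowest of the group. The difference between Ncr1 and Cd3e in the same tumor, 3.77 log2, does not depend on the scaling factor. Its summed T cell markers, 26.3 CPM, were below those of every PBS tumor.

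The call count depended on this tumor and others. Without cisplatin+ICB replicate 1 it was 7 (Klre1, Cd226 and Eomes joined), and without replicate 3 it was 6. It was 0 without any single tumor among PBS replicates 1, 3 and 4 and cisplatin+ICB replicates 2, 4 and 5, and 0 with the replicate block. T cell markers were called higher in 8 of 10 cases, with a summed 26.3 to 416 CPM, and 2 of the 9 tested NK markers (Prf1 and Klrb1b) were called higher.

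**Figure D3:**
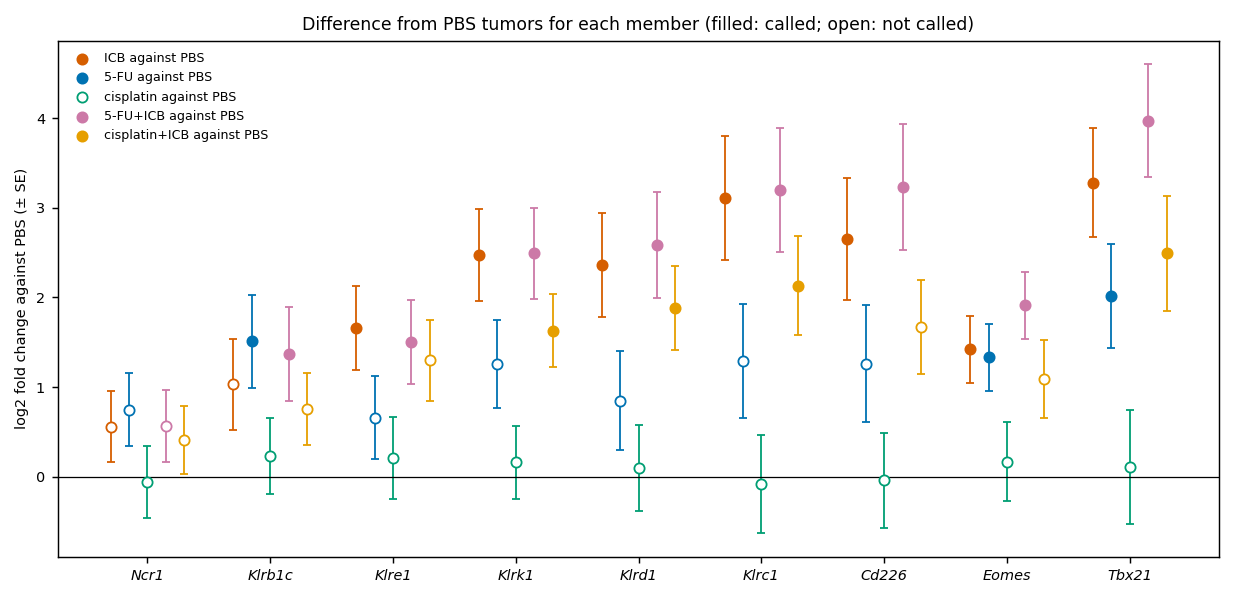
Log2 fold change against PBS (vertical axis, bars ± SE) of each member (horizontal axis) for 5 treatments, filled where called. The tallest values were those of Tbx21, at 3.28 in ICB and 3.97 in 5-FU+ICB tumors, and Ncr1 had no filled point, with values between -0.06 and 0.75.

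The fourth comparison asked what each combination added to its parts, in tumors that again serve in several comparisons. Against 5-FU alone, 5-FU+ICB gave log2 differences of 1.97 for Cd226, 1.95 for Tbx21, 1.91 for Klrc1, 1.74 for Klrd1 and 1.24 for Klrk1. Klre1 and Eomes differed by 0.84 and 0.58, and Ncr1 and Klrb1c by -0.18 and -0.14. None was called by edgeR (0.0112% of all genes, adjusted p of the members 0.135 to 0.887), whereas 5 had an unadjusted p under 0.05 (16.6% of all genes) and DESeq2 called 4 (Klrd1, Klrc1, Cd226 and Tbx21). Without 5-FU+ICB replicate 2, edgeR called 5 members (those 4 and Klrk1), and without 5-FU replicate 3 it called 3. In this comparison and those below, no share of all genes is given for DESeq2 calls or for fits without a tumor.

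Cisplatin+ICB exceeded cisplatin alone in all 9 members, by 2.38 log2 for Tbx21, 2.21 for Klrc1, 1.78 for Klrd1, 1.71 for Cd226 and 1.48 for Klrk1, and by 1.09, 0.92, 0.53 and 0.47 for Klre1, Eomes, Klrb1c and Ncr1. None was called by edgeR (0% of all genes, adjusted p of the members 0.0871 to 0.657). An unadjusted p under 0.05 was found for 7 (14.2% of all genes), and DESeq2 called 5 (Klrk1, Klrd1, Klrc1, Cd226 and Tbx21). Without cisplatin+ICB replicate 1 edgeR called 6 members, and without replicate 3 it called 5.

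Set against ICB alone, neither combination moved a member past the threshold. For 5-FU+ICB the differences ran from -0.16 to 0.69 log2, the largest being Tbx21 (0.69, SE 0.50), Cd226 (0.58, SE 0.58) and Eomes (0.49, SE 0.33). EdgeR and DESeq2 called none, 0.229% of all genes were called by edgeR, and no member had an unadjusted p under 0.05 (10.9% of all genes). For cisplatin+ICB all 9 differences were negative, from -1.01 to -0.15, led by Cd226 (-1.01, SE 0.47), Klrc1 (-0.99, SE 0.49) and Klrk1 (-0.85, SE 0.37). Neither tool called any (0% of all genes by edgeR), and 2 had an unadjusted p under 0.05. The latter held for 15.9% of all genes, so that count is near the background.

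Between the combinations, all 9 members were numerically higher with 5-FU+ICB than with cisplatin+ICB, by 0.16 to 1.57 log2. EdgeR and DESeq2 called none (0.297% of all genes by edgeR), and Cd226 (1.57, SE 0.57, edgeR adjusted p = 0.108) and Tbx21 (1.45, SE 0.59, edgeR adjusted p = 0.138) had an unadjusted p under 0.05. So did 25.7% of all genes, so the number of members is near the background. Cd226 and Tbx21 were both called without 5-FU+ICB replicate 2. The interaction of ICB with 5-FU asks whether the combination differs from the sum of both log2 effects. It was negative for all 9 members, from -1.33 to -0.62, and that with cisplatin ran from -1.01 to -0.09. No interaction was called by edgeR or DESeq2 (0.0893 and 0% of all genes by edgeR), and no member had an unadjusted p under 0.05 (23.9 and 7.14% of all genes).

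Within treatment groups the members differed in how closely they varied with Cd3e. After subtracting each group's mean log2 CPM, the Pearson r with Cd3e over 28 tumors was 0.98 for Tbx21, 0.90 for Eomes, 0.87 for Klrc1, 0.85 for Klrk1, 0.84 for Cd226, 0.73 for Klrd1, 0.60 for Klre1, 0.57 for Klrb1c and 0.26 for Ncr1. These tumors share a depth scaling and a varying leukocyte content, so r is given without a test. Spearman's rho with Cd3e was 0.97 for Tbx21 and 0.38 for Ncr1. Ncr1 varied most with Klrb1c (r = 0.86) and least with Tbx21 (r = 0.20). Klrk1, Klrd1, Klrc1 and Cd226 varied together, with r between 0.94 and 0.98. Cisplatin+ICB replicate 1 weighed heavily: in the other 27 tumors Ncr1 gave r = 0.58 with Cd3e and 0.69 with Eomes (0.30 with that tumor), while Tbx21 kept r = 0.97 with Cd3e. The order of the other members changed too, since r with Cd3e became 0.96 for Klrc1, 0.92 for Klrk1 and Cd226, 0.90 for Klrd1, 0.85 for Eomes, 0.77 for Klre1 and 0.74 for Klrb1c. Tbx21 was first and Ncr1 last in both orders. That tumor was left out after its values had been seen.

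The genes nearest each member in this within-group variation, among 18512 others, differed between members. Tbx21 was nearest to Cd3e (r = 0.98, Spearman's rho = 0.97), the guanine nucleotide exchange factor Psd4 and Il2rb, the shared IL-2 and IL-15 receptor chain (both r = 0.98). Klrc1 was nearest to the chemokine receptor Cxcr6 (r = 0.98, rho = 0.99), Ms4a4b and the granule gene Nkg7. Klrk1 was nearest to Skap1 and Lck, of T cell receptor signaling, and the granule protease gene Ctsw (each r = 0.97). Cd226 was nearest to Ms4a4b, Skap1 and Lck (r = 0.97, 0.97 and 0.96), and Klrd1 to Tbc1d10c, Lck and Gpr174 (r = 0.96, 0.96 and 0.95).

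Ncr1 was nearest to the Fc receptor Fcgr3 (r = 0.89, rho = 0.87), the Ly49 receptor Klra7 (r = 0.89) and Klrg1 (r = 0.88). Klrb1c was nearest to Ly86, Tcrg-C1 and Lair1 (r = 0.92, 0.91 and 0.90), and Klre1 to the long noncoding RNA Gm19585, its partner gene Klri2 and Klra17 (each r = 0.86). Eomes was nearest to Themis2, Icosl and Gm4759 (r = 0.94, 0.94 and 0.93). Without subtracting group means, Tbx21 still ranked Cd3e first and Klrc1 still ranked Cxcr6 first, whereas Lair1 fell to rank 480 for Klrb1c and Klra17 to rank 2165 for Klre1.

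**Figure D4:**
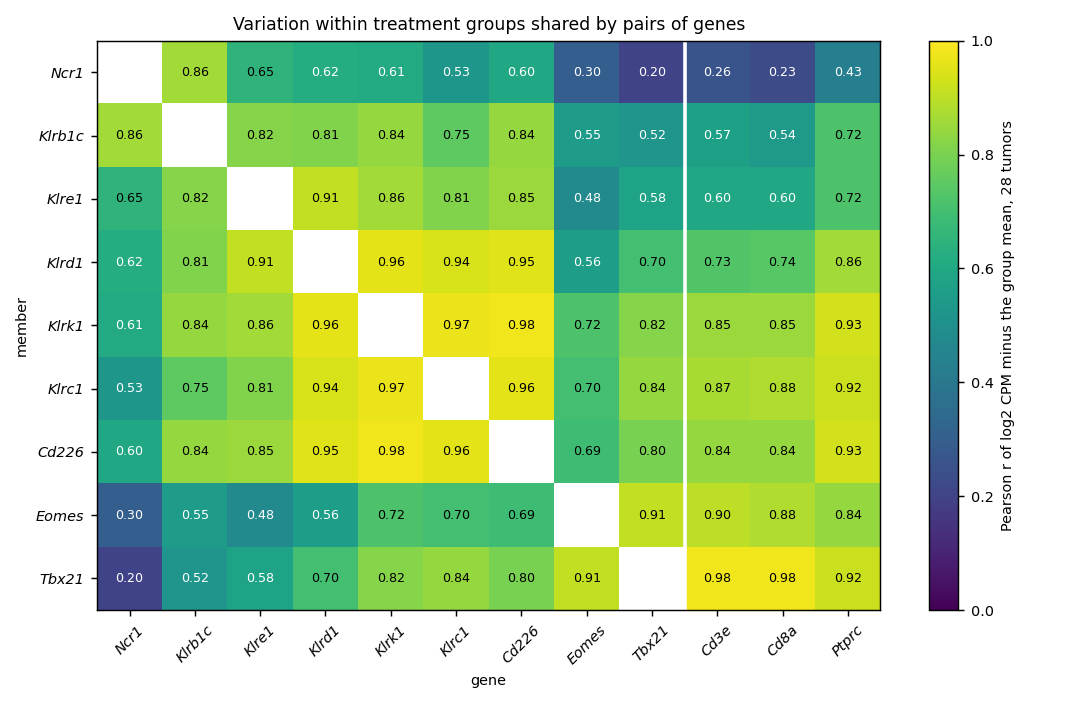
Pearson r of log2 CPM after subtracting group means, over 28 tumors, between each member (rows) and the other members, Cd3e, Cd8a and Ptprc (columns). Values run from 0.20 (Ncr1 with Tbx21) to 0.98 (Tbx21 with Cd3e and Cd8a, Klrk1 with Cd226).

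Ligands and partners of the receptors were read in the same comparisons, from lists given in full by their counts. Against PBS, the share of all genes called higher was 19% in ICB, 9.98% in 5-FU, 21.9% in 5-FU+ICB and 4.70% in cisplatin+ICB tumors, which is the background of each count of calls in these lists. Of 9 NKG2D ligand genes, 5 were in the tables, and Raet1a, Raet1b, Raet1c and H60a were absent. In ICB tumors 4 of these 5 were called lower (H60b by -1.46, H60c by -1.38, Raet1e by -1.16 and Raet1d by -1.04 log2), where 18.8% of all genes were called lower. The same 4 were called lower in 5-FU+ICB tumors, by -1.76 to -1.29 log2 (18.7% of all genes), only Raet1e (-0.86) in 5-FU tumors (13% of all genes), and none in cisplatin or cisplatin+ICB tumors. The fifth, Ulbp1, was not called (-0.54 in ICB and -0.84 in 5-FU+ICB tumors) and made up 134 CPM of the PBS mean. The summed level of all 5 was 160 to 205 CPM in PBS tumors, 62.1 to 164 CPM in ICB and 18.5 to 179 CPM in 5-FU+ICB tumors. Of 5 markers of tumor cells and mesothelium, Msln, the mesothelin gene, made up nearly all of the sum in PBS tumors. The sum was 273 to 361 CPM in PBS tumors, 54.1 to 218 CPM in ICB, 46.2 to 178 CPM in 5-FU and 36.9 to 169 CPM in 5-FU+ICB tumors, with 1 of the 5 at 0 in each of the last 3 groups. How much of the sum Msln made up in each treated tumor is not given here. Of the 3 tested, Msln was called lower in 5-FU+ICB tumors (-2.28) and not in ICB tumors (-1.51, SE 0.76, edgeR adjusted p = 0.117), and Wt1 went the other way and was called higher in every group but cisplatin. Their part in the ligand values was not tested.

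H2-T23, which encodes Qa-1, the ligand of the CD94 and NKG2A pair, moved in the same direction as Klrc1. It was called higher by 1.62 (SE 0.40, edgeR adjusted p = 0.00439) in ICB, 1.49 in 5-FU+ICB and 1.02 in cisplatin+ICB tumors, and its values in 5-FU (0.59) and cisplatin (-0.02) tumors were not called. Pvr, a ligand of CD226, was not called in any of the 5 comparisons with PBS (-0.69 to -0.14). Of the 6 genes of this group, 3 were called higher and 1 lower in ICB and in 5-FU+ICB tumors, 1 (Pvrig) higher in 5-FU tumors and none in cisplatin or cisplatin+ICB tumors. The gene called lower was Nectin3 (-0.86 in ICB and -0.80 in 5-FU+ICB tumors), which encodes a related nectin. The receptors Cd96, Tigit and Pvrig, which share ligands with Cd226, were called higher by 3.11, 1.69 and 1.73 log2 in ICB tumors and by 3.56, 2.23 and 1.93 in 5-FU+ICB tumors.

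Of 8 adapters and partner chains, 4 were called higher in ICB tumors (Klrc3, Klrc2, Cd247 and Fcer1g), 5 in 5-FU+ICB, 3 in cisplatin+ICB and none in 5-FU or cisplatin tumors. With 8 genes, none called in 5-FU tumors is close to the background there. Hcst, the DAP10 adapter of NKG2D, was called in 5-FU+ICB tumors (2.31, SE 0.73, edgeR adjusted p = 0.0165) and not in ICB tumors (1.64, SE 0.71, edgeR adjusted p = 0.0695). Tyrobp, the DAP12 adapter, was not called in any comparison with PBS, with log2 values of -0.32 to 0.99. Klri1, a partner of KLRE1, was not called either (-0.22 to 0.83). Klri2, the other partner gene, was called higher in 5-FU+ICB tumors and in no other comparison with PBS.

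Other NK receptor families had few calls in some groups. Of 11 Ly49 receptor genes 7 passed the filter, and 3 were called higher in ICB tumors (Klra2, Klra5 and Klra1), 1 each in 5-FU, 5-FU+ICB and cisplatin+ICB tumors. A single call among 7 genes is near or below the background in 5-FU and 5-FU+ICB tumors. Of 8 genes of the NKR-P1 group 5 passed, and 2 (Klrb1b and Clec2i) were called higher in ICB, 3 in 5-FU, 4 in 5-FU+ICB and 2 in cisplatin+ICB tumors. Klrb1b, an inhibitory relative of Klrb1c, rose by 3.23 log2 in ICB tumors, where Klrb1c did not pass the test. Reads of these families can also be split among near copies.

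Factors and cytokine receptors that work with T-bet and eomesodermin were called in part. Of 11 transcription factors of NK and innate lymphoid cells, 8 were called higher in ICB tumors, led by Tox (3.50), Zfp683 (3.19), Ikzf3 (2.61) and Runx3 (2.33 log2). The counts were 4 in 5-FU, 8 in 5-FU+ICB and 1 in cisplatin+ICB tumors. Of 12 cytokines and receptors, 10 were called higher in ICB tumors, among them Il12rb2 (4.41) and Il2rb (2.95), with 6 in 5-FU, 11 in 5-FU+ICB and 7 in cisplatin+ICB tumors. Il15, the cytokine on which NK cells depend, rose by 0.83 log2 in ICB tumors (SE 0.27, edgeR adjusted p = 0.0211) and was not called in 5-FU (-0.08), 5-FU+ICB (0.34) or cisplatin+ICB tumors (0.82).

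Cytotoxic effectors, the output that NK and CD8+ T cells share, were called higher in 12 of 13 cases in ICB tumors, 8 in 5-FU, 12 in 5-FU+ICB, 10 in cisplatin+ICB and none in cisplatin tumors. Prf1, encoding perforin, rose by 3.61 log2 in ICB tumors (SE 0.45, edgeR adjusted p = 6.79e-05), and Ifng, a target gene of T-bet, by 5.26. Other cell types that can carry these receptors were read too. Group 1 innate lymphoid cell markers (Tnfsf10, Itga1, Cxcr6, Il7r and Cd200r1) were called higher in 5 of 5 cases in ICB and 5-FU+ICB, 3 in 5-FU and 4 in cisplatin+ICB tumors. Tnfsf10 is also counted among the cytotoxic effectors, and Cxcr6 was the gene nearest to Klrc1. These calls are therefore not read as more innate lymphoid cells. Gamma delta T cell markers, with 3 of 5 tested, had no call in ICB, 5-FU or cisplatin+ICB tumors and 2 (Sox13 and Trdc) in 5-FU+ICB tumors. Trgc1 and Trgc2 were not found under those symbols. Tcrg-C1, a constant segment gene named above as near Klrb1c, was present and was not counted in this list. Of 4 markers of group 2 and 3 innate lymphoid cells, 3 were tested against PBS in the 5-FU table, and Il1rl1 was called higher in ICB tumors and, of 2 tested, in cisplatin+ICB tumors. Macrophage and monocyte markers were called higher in 6 of 7 cases in ICB, 2 in 5-FU, 5 in 5-FU+ICB and 2 in cisplatin+ICB tumors. Of 4 B cell markers, 3 were called higher in 5-FU+ICB tumors and none in the other treatment groups. Their part in the members' values was not tested.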

How the data were processed

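Whole tumors were sequenced single-end, and the reads were demultiplexed with bcl2fastq 2.20.0.422, as the submitters' processing notes give. The authors quantified transcripts of the mouse GRCm38 build by pseudo-alignment (kallisto 0.46.0) and summarised them to genes with tximport. The transcript annotation release is not given in the sources used here. The deposited values were estimated counts per gene without normalization, in 2 tables that share the 9 PBS and ICB tumors with identical values. Of the values, 23.7% were not whole, and all were rounded before testing.

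Groups came from the sample labels, which give no batch. In R 4.3.3, edgeR 4.0.16 filtered each table with filterByExpr, normalized it by TMM and fitted its groups by quasi-likelihood, leaving 17916 genes in the 5-FU table and 17819 in the cisplatin table. The 28 tumors joined (18521 genes) served the comparisons of the chemotherapies and of the combinations, and the CPM. Log2 CPM used a prior count of 2. P-values were adjusted over all genes tested. The procedure was tested on simulated data. Alternatives were DESeq2 1.42.0, other scalings and filters, a replicate block, other sample sets, no fold threshold and leaving out each tumor. The ICB comparison in the cisplatin table, and values without cisplatin+ICB replicate 1 in the Cd3e differences and correlations, and its levels scaled by total counts alone, were added after the data had been seen.

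The members and lists were chosen with earlier results of these data known. Named in the text are all members, a fixed set of partner genes, at most 4 called genes a list (those with the largest change), and the 3 nearest genes of each member. Klri1, Klri2 and other genes named in counts of 5 or fewer were chosen after their values were seen. Absent genes are named for the NKG2D ligands and the gamma delta T cell markers. The labels state no pairing by replicate number. Same-numbered tumors had a mean correlation of deviations from group means of -0.063 to 0.18, which with so few tumors a number cannot exclude pairing. Totals were 23541733 to 33950805 counts, and the lowest count of a member in a tumor was 17.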

Additional observations from a re-analysis of the deposited data

Results flagged for a closer look

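The 9 members in 6 groups gave 54 sets of tumors, and 3 of them held a tumor far from the rest by Dixon's test at the 95% level, which chance flags in about 1 of 20 sets. Klrb1c in ICB replicate 4 had a log2 CPM of 1.52, with 2.61 in the next lowest tumor. Klrk1 in 5-FU+ICB replicate 2 was at 4.04, with 6.00 in the next lowest, and Klrd1 in cisplatin+ICB replicate 3 was at 2.03, with 3.69 in the next lowest. Each was the low end of its group.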

How the results depend on the processing

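The 7 calls in ICB tumors against PBS were kept under every alternative run, the added fit on the cisplatin table included, as were 6 of the 8 in 5-FU+ICB tumors (all but Klrb1c and Klre1). Of 117 member values, 98 kept their sign in all alternatives, and the 19 that did not were at most 0.23 log2 in size. None of the 22 called values changed sign. The count called in 5-FU tumors moved from 3 to 1 with the replicate block, 0 with all 28 tumors in 1 model and 0 to 4 when single tumors were left out. In cisplatin+ICB tumors it moved from 4 to 0 with the replicate block, 1 with all 28 tumors, 0 with only the 2 groups fitted and 0 to 7 without single tumors, and DESeq2 called 6. DESeq2 raised it from 0 to 4 for 5-FU+ICB against 5-FU (0 to 5 without single tumors) and from 0 to 5 for cisplatin+ICB against cisplatin (0 to 6). Between the combinations it was 0 to 2 without single tumors. In 5-FU+ICB against 5-FU, Klrb1c turned to 0.01 with the replicate block and to 0.08 without 5-FU+ICB replicate 2, and ranged from -0.36 (without 5-FU replicate 4) to 0.35 (without 5-FU replicate 3). Ncr1 ranged from -0.46 (without 5-FU+ICB replicate 3) to 0.16 (without 5-FU replicate 3). The causes were not tested. A prior count of 0.5 moved no member's group mean of log2 CPM by more than 0.05. The labels state no pairing behind the replicate numbers, so a call lost with the block is not read as a weaker effect. The lowest member count in any tumor was 17, and whether depth limits any call was not tested.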
